A study of Saccharomyces cerevisiae with 18 samples.

Results

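The genes described here encode the proteins of the cytosolic small (40S) ribosomal subunit of budding yeast. They were chosen by name: every row of the deposited table whose standard gene name is RPS, digits and an optional A or B. This gave 54 of the 6212 genes in the table. The yeast annotation used for names holds 56 such genes, and RPS19A and RPS30A were not analysed here. Of the 54 genes, 51 had at least 1 value, 37 had a value on all 18 arrays, and RPS10A, RPS10B and RPS16A had none. RPS18B, RPS22B and RPS28A had values on under 10 arrays.

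The 40S subunit binds the messenger RNA, scans for the start codon and holds the site where codons are read. Most of its proteins are encoded in budding yeast by a pair of near-identical genes, written A and B, that arose from an old genome duplication. Ribosomal protein genes are among the most highly expressed genes of dividing yeast, and their messenger RNAs are known to fall together when growth slows or nutrients run out. Their transcription depends on Rap1, Fhl1, Ifh1 and Sfp1.

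The study asked how a sudden lack of external potassium changes messenger RNA levels over time. K-free cells were wild-type yeast of strain BY4741 in K-free Translucent medium, which holds about 15 µM residual potassium. KCl cells were the same strain in that medium with 50 mM KCl. Per the labels, each culture reached an absorbance of 0.6 at 28 °C in its own medium, was washed in it, and was harvested 10, 20, 40, 60 or 120 min later; the design text calls these times of potassium shortage. Each two-colour array held both RNAs, so every value is a log2 ratio, K-free over KCl, and a negative value means less messenger RNA in K-free cells. At 10 min 1 experiment with a dye swap gave 2 arrays; at every later time 2 experiments gave 4 arrays. Which arrays form a dye-swap pair is not stated: replicates 1 and 2 were taken as experiment A and replicates 3 and 4 as experiment B, and all values by experiment rest on this assumption.

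The direction of the ratio is likely from the array titles and is not stated, and the log base is likely from the range of the values. The labels name Cy5 for both channels of replicate 2 at 10 min, and the dyes in its title were used. All ratios are relative to the other genes on the same array, so a change in a cell's total messenger RNA cannot be seen. Arrays held 3913 to 5372 values, and their medians ran from -0.237 to 0.179. For arrays, their number limits the precision. Means are given with their standard error (SE) from a fit across all genes in limma, with adjusted p-values (Benjamini-Hochberg, over all genes tested). A gene was called at an adjusted p under 0.05. The fit takes a common spread per gene from all times together, so an SE is not the spread at its time alone.

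The 40S genes had median log2 ratios slightly above 0 at 10 and 20 min, at 0.20 and 0.15, with none called. They were slightly below 0 at 40 min, and were lower in K-free cells as a group at 60 and 120 min. At 60 min all 47 of the genes tested were lower, with a median log2 ratio of -1.85, where 25.1% of all genes tested were called lower. At 120 min 45 of the 46 genes tested were lower, with a median of -2.30, where 22% of all genes tested were called lower. No 40S gene was called higher at any time. The exception at 120 min was RPS29A, 1 of the pair that encodes a small zinc-binding protein of the subunit head, with a mean of -0.26 ± 0.23 (SE) and an adjusted p of 0.384 in limma.

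**Figure D1:**
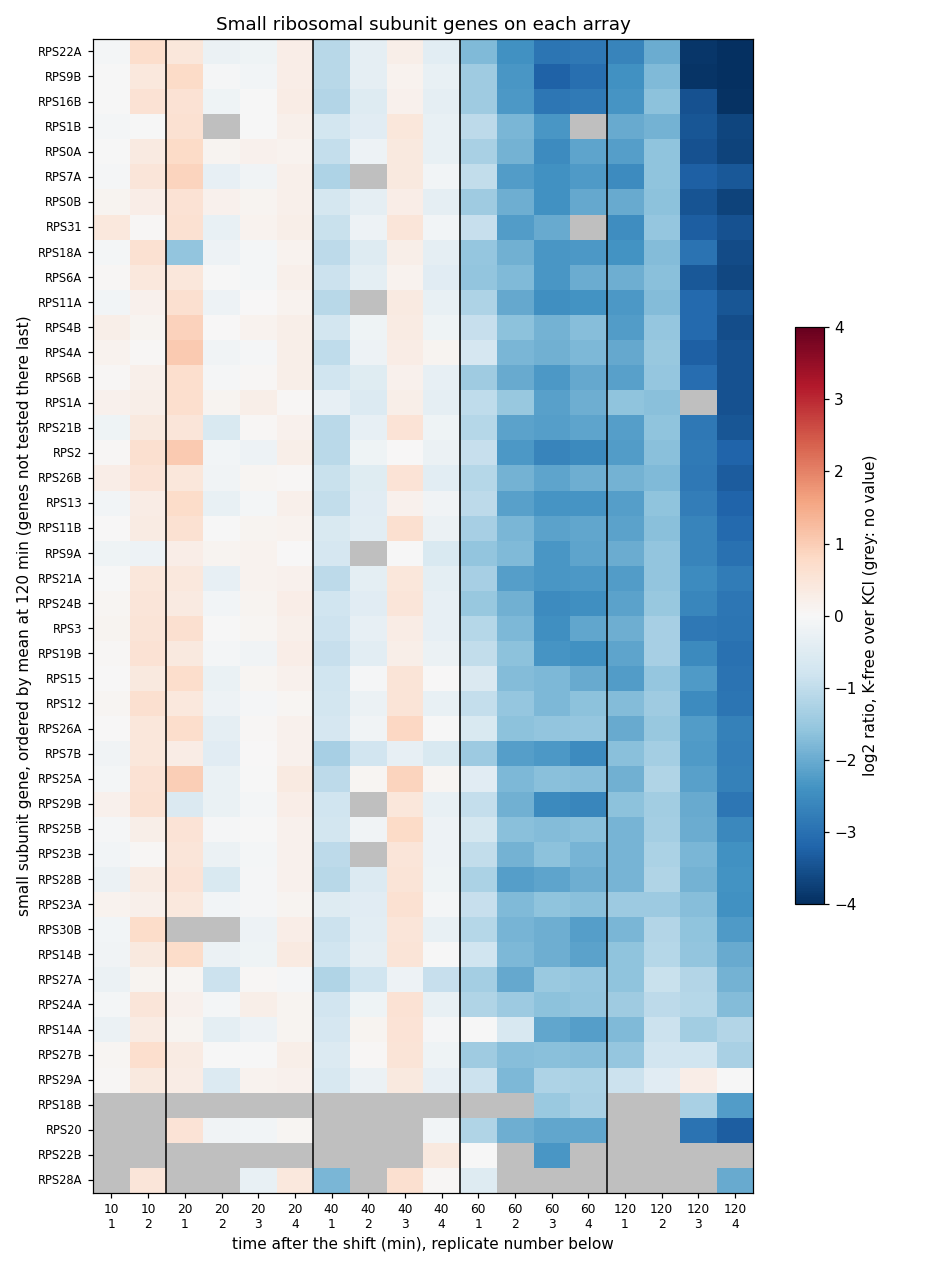
Each row is one of the 40S genes and each column an array, labelled by time after the shift (min) and replicate number; colour is the log2 ratio, K-free over KCl, blue where lower in K-free cells and grey where no value was given. Columns of 60 and 120 min are blue almost throughout, RPS29A at 120 min being near white, and rows are ordered by the mean at 120 min.

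At 10 min the 47 tested genes had a median log2 ratio of 0.20, from -0.19 to 0.40. None was called, where 0% of all genes were. None reached an unadjusted p of 0.05 in limma, while 135 of all 4821 genes tested did. The lowest were RPS9A at -0.19, RPS27A at -0.06 and RPS1B at -0.05, and the highest were RPS26B at 0.40, RPS29B at 0.39 and RPS27B at 0.38. The array medians of the 40S genes were -0.02 and 0.40, so the value above 0 came from replicate 2. By the titles, K-free RNA was in Cy3 on replicate 1 and in Cy5 on replicate 2.

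At 20 min the 47 tested genes had a median of 0.15, from -0.43 to 0.34. Again none was called, where 0.482% of all genes were. None reached an unadjusted p of 0.05 in limma, while 272 of all 4361 genes tested did. RPS18A was lowest at -0.43 ± 0.36, followed by RPS27A at -0.19 and RPS29B at -0.17. RPS18A, a head protein that lies near the transfer RNAs, had ratios of -1.58, -0.20, -0.08 and 0.14 on replicates 1 to 4, so a single array set its mean. Among the highest were RPS1B and RPS4B at 0.34 and 0.33. Array medians were 0.56, -0.16, -0.01 and 0.19 on replicates 1 to 4. By the titles, K-free RNA was in Cy5 on replicates 1 and 4 and in Cy3 on replicates 2 and 3. At 10 and 20 min the medians were above 0 where K-free RNA was in Cy5 and below 0 where it was in Cy3. Whether the dye set this was not tested.

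At 40 min the 48 tested genes had a median of -0.28, and 47 of them had a mean below 0. Only RPS27A was called, where 3.7% of all genes were called lower. At an unadjusted p of 0.05 in limma 2 of the 40S genes were lower, beside 658 of all 4703 genes tested. RPS27A and RPS27B encode a zinc-finger protein of the subunit body. RPS27A had ratios of -1.21, -0.80, -0.21 and -0.94 on replicates 1 to 4, below 0 on every array, with a mean of -0.79 ± 0.19 and an adjusted p of 0.047 in limma. That call was lost in 7 of 19 alternative settings, median centring among them, and without replicate 1, without replicate 4 or without either experiment, where its adjusted p reached up to 0.387. RPS7B and RPS28A came next with -0.75 and -0.73, at adjusted p of 0.128 and 0.445. The highest were RPS25A at 0.01, RPS26A at -0.00 and RPS14A at -0.01.

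With the arrays paired as assumed, the 2 experiments did not match at 40 min. The dyes equally allow replicate 1 to be paired with 3 and replicate 2 with 4. The median of the 40S genes was -0.62 in experiment A (replicates 1 and 2) and 0.09 in experiment B (replicates 3 and 4), and 0 of the 48 genes were lower in B than in A. By array the medians were -0.87, -0.34, 0.46 and -0.23, with only replicate 3 above 0. The large subunit genes, on the same arrays, had medians of -0.83, -0.31, 0.41 and -0.25. What set the experiments apart was not tested.

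**Figure D2:**
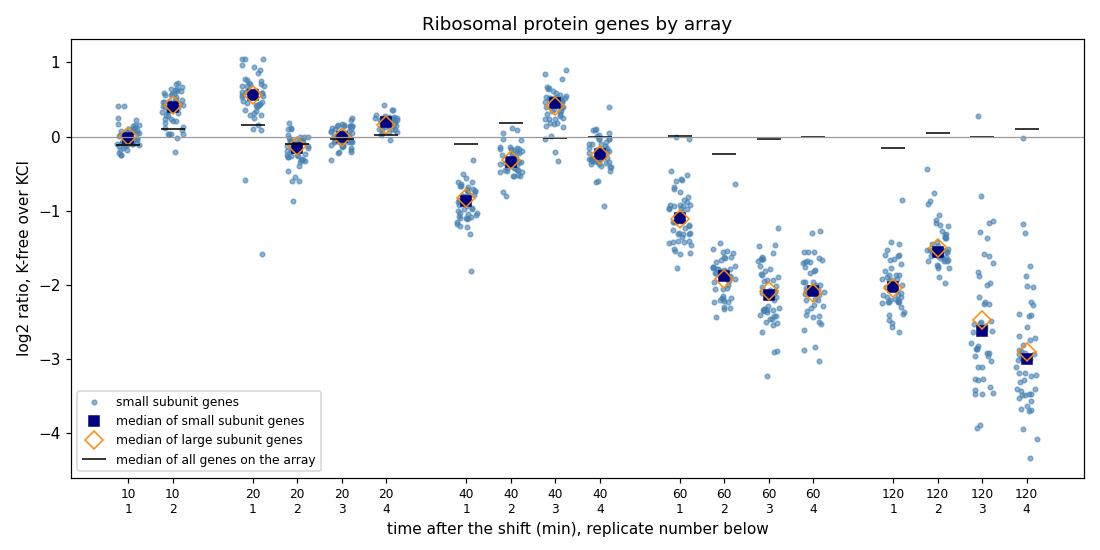
Points are the log2 ratios (K-free over KCl) of single 40S genes on each array, with time (min) and replicate number below; squares are their medians, diamonds the medians of large subunit genes, and dashes the medians of all genes on the array. The squares run from -1.10 to -2.14 at 60 min and from -1.55 to -3.01 at 120 min, and the diamonds stand close to them on every array.

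At 60 min every 1 of the 47 tested genes was below 0 in the mean by more than 1 log2 unit, from -2.50 to -1.23, with adjusted p-values in limma of 0.000694 to 0.0306. Across all 4127 genes tested, the median was -0.09, and 15.9% lay below -1. The array medians were -1.10, -1.88, -2.14 and -2.09, with replicate 1 nearest 0. Experiment B was lower than experiment A, with medians of -2.11 and -1.58, in 45 of the 47 genes. Without experiment B, 25 genes were still called; without experiment A, all 46 genes that could be tested were. RPS1B was not called without replicate 3.

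At 120 min the means of the 46 tested genes spread more widely, from -3.21 to -0.26, with an SD over genes of 0.55, against 0.29 at 60 min. The wider spread was that of replicates 3 and 4. By array, the SD over 40S genes at 120 min was 0.34, 0.30, 0.85 and 0.79 on replicates 1 to 4. At 60 min it was 0.38, 0.31, 0.40 and 0.39. The array medians were -2.03, -1.55, -2.63 and -3.01. Experiment B was lower again, with medians of -2.84 and -1.82, in 43 of 46 genes. The genes kept much the same order in both: across genes, which share arrays and are not independent, the experiments' values correlated with r = 0.923 at 120 min (46 genes). At 60 min r was 0.535 (47 genes), and at 40 min it was 0.249 (48 genes). Of the 45 genes called at 120 min, 42 were called in every alternative, and RPS14A, RPS14B and RPS29B were not; each of these was lost without experiment B, and RPS14A also without experiment A or replicate 1.

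**Figure D3:**
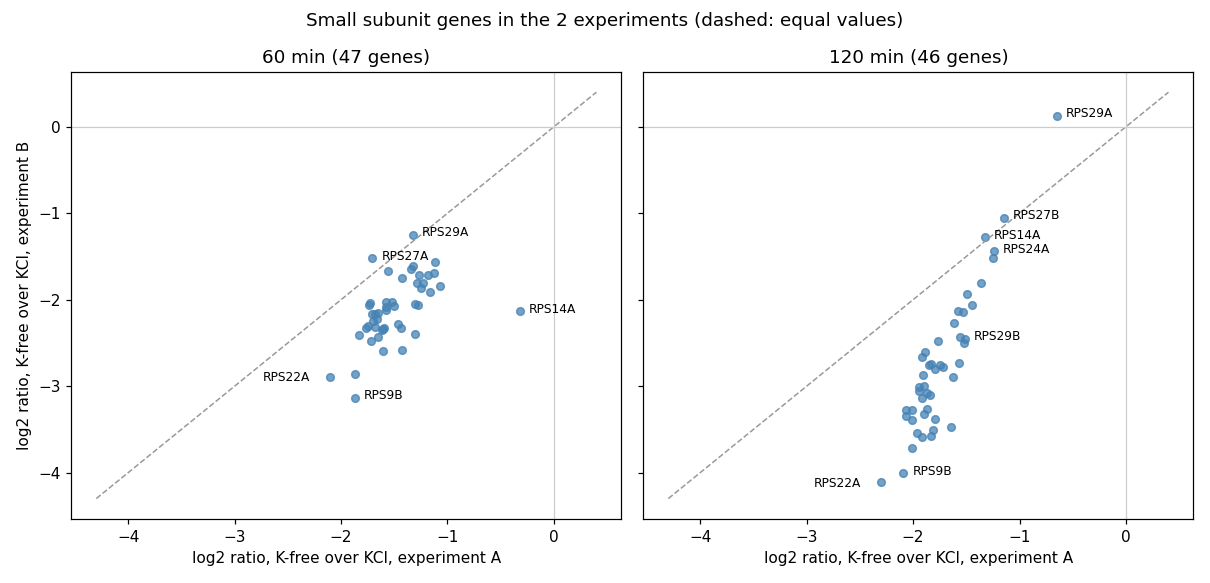
Each point is a 40S gene, with its log2 ratio (K-free over KCl) in experiment A on the horizontal axis and in experiment B on the vertical axis, at 60 min (left, 47 genes) and 120 min (right, 46 genes); the dashed line marks equal values. Most points lie below the line, and at 120 min they form a steep band from RPS29A, near 0, to RPS22A and RPS9B at the bottom.

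The 8 proteins encoded by a single gene, with no A or B paralog to share signal with, gave a compact picture. All 7 of those tested at 60 min were lower, with a median of -1.83, and all 6 tested at 120 min were lower, with a median of -2.35. Their range at 120 min was -2.70 to -2.15 (SD over genes 0.20). The 40 tested members of pairs had a median of -2.30 at 120 min and an SD of 0.59, with 39 called lower.

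RPS2 and RPS3 line the entry of the messenger RNA channel. RPS2 had ratios of -0.92, -2.30, -2.64 and -2.53 on the 4 arrays of 60 min and -2.23, -1.66, -2.82 and -3.20 at 120 min, and its means were -2.10 ± 0.33 and -2.48 ± 0.33. RPS3 had ratios of -1.14, -1.79, -2.47 and -2.09 at 60 min and -1.94, -1.31, -2.85 and -2.93 at 120 min, with means of -1.87 and -2.26. Every array was more than 0.9 below 0 for both genes.

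RPS12, RPS13 and RPS15 came in at -1.49, -1.98 and -1.54 at 60 min and -2.15, -2.45 and -2.24 at 120 min. RPS12 and RPS15 lie in the head, and RPS15 is needed for export of the new subunit from the nucleus, and RPS13 lies in the body. RPS15 had ratios of -0.58, -1.75, -1.81 and -2.01 at 60 min, against which its 120 min ratios of -2.22, -1.56, -2.26 and -2.94 overlap. The 3 genes were called at both times, with adjusted p-values of at most 0.00503.

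RPS31 encodes a fusion of ubiquitin with a 40S head protein, so its messenger RNA also supplies ubiquitin. Its ratios were -0.93, -2.24 and -2.02 on the 3 arrays of 60 min that measured it and -2.47, -1.55, -3.29 and -3.48 at 120 min, with means of -1.80 ± 0.33 and -2.70 ± 0.33. RPS20, a head protein, had ratios of -1.21, -1.95, -2.09 and -2.08 at 60 min, with a mean of -1.83 and an adjusted p of 0.00183. At 120 min RPS20 was measured only in experiment B, at -2.97 and -3.29, and was not tested.

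At 10 min RPS31 had ratios of 0.41 and 0.04, and the highly expressed glycolytic gene TDH1 stood within 0.002 of both. Between 35 and 54 genes shared TDH1's value to that tolerance on the arrays of 10 min, and up to 75 on an array of 20 min. No 40S gene did so at 60 or 120 min. The cause of the shared values was not tested, since the table holds no intensities.

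By place in the subunit, the head and the body, platform included, gave like counts. Of the head genes, 15 of 15 tested were lower at 60 min (median -1.85) and 13 of 14 at 120 min (median -2.25), RPS29A being the exception. Of the other genes, 32 of 32 tested were lower at 60 min (median -1.86) and 32 of 32 at 120 min (median -2.42).

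The lowest genes at both times were RPS22A and RPS9B, which encode core proteins that bind the 18S ribosomal RNA early in assembly; RPS9 also bears on reading accuracy. RPS22A had ratios of -1.78, -2.44, -2.91 and -2.88 on the arrays of 60 min and -2.63, -1.97, -3.89 and -4.33 at 120 min. Its means were -2.50 ± 0.41 at 60 min and -3.21 ± 0.41 at 120 min, the last being 9.24-fold lower in K-free cells (adjusted p = 0.00177 in limma). Among the 46 genes tested at 120 min it was the lowest in the mean.

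RPS9B had ratios of -1.42, -2.33, -3.24 and -3.03 at 60 min and -2.41, -1.78, -3.93 and -4.09 at 120 min, and its mean at 120 min was -3.05 ± 0.46, 8.29-fold lower. RPS16B, a head protein whose tail reaches the transfer RNA and whose paralog had no value, followed with -2.37 and -2.86. The other low genes of 60 min were RPS7B at -2.12 and RPS2 at -2.10. At 120 min they were RPS1B and RPS0A, both at -2.75. RPS0 and RPS1 proteins face the solvent side of the subunit.

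At the other end, RPS14A was the highest gene of 60 min. Its product, a platform protein, is needed for cleavage of the 20S precursor RNA; mutations in it give resistance to cryptopleurine. RPS14A had ratios of -0.00, -0.64, -2.08 and -2.19 on replicates 1 to 4 of 60 min. Its mean of -1.23 ± 0.38 (adjusted p = 0.0306 in limma) thus joins 2 experiments that lie far apart. That SE comes from the gene's spread over all times and does not measure the gap at 60 min. With each time point fitted alone, RPS14A was not called at 60 min. It was not called at 60 min in 6 of 19 alternatives, among them without replicate 2 and without experiment B. Over all 19 alternatives its mean ran from -2.14 to -0.32. At 120 min its ratios were closer together, at -1.77, -0.88, -1.38 and -1.18, with a mean of -1.30.

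The next at 60 min were RPS29A at -1.29, RPS26A at -1.35 and the pair RPS25A and RPS25B at -1.41 and -1.45. RPS25 is needed for initiation at some viral internal entry sites, and RPS26 contacts the messenger RNA upstream of the start codon. RPS25A and RPS26A had their highest ratios on replicate 1, at -0.47 and -0.60, and the other 3 arrays lay between -1.78 and -1.56. At 120 min RPS26A stood at -2.12 and RPS25A and RPS25B at -1.99 and -1.94.

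At 120 min the genes nearest 0 after RPS29A were RPS27B at -1.10, RPS14A at -1.30, RPS24A at -1.34 and RPS27A at -1.39, all called lower. RPS27B had ratios of -1.42, -1.70, -1.66 and -1.69 at 60 min, a tight set, and -1.54, -0.76, -0.81 and -1.30 at 120 min. Its fold was 3.06 lower at 60 min and 2.14 lower at 120 min.

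Between neighbouring times no 40S gene passed the threshold, and 0% of all genes did in each of the 3 contrasts. From 20 to 40 min the median shift of the 40S genes was -0.43. None of them reached an unadjusted p of 0.05 in limma, while 382 of all 4237 genes tested did. From 40 to 60 min the median shift was -1.51 and all 46 genes had a lower mean at 60 min, 45 of them at an unadjusted p of 0.05. Their adjusted p-values ran from 0.135 to 0.245, and over all genes 847 of 4010 reached an unadjusted p of 0.05. The largest shifts were those of RPS22A and RPS9B, both -2.10, and RPS16B, -1.89.

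That count moved with the treatment of the arrays. With each array taken as a replicate, or with arrays 1 and 3 and arrays 2 and 4 taken as the dye-swap pairs, all 46 genes passed for 60 minus 40 min. With the replicate number as a block, 43 passed. From 60 to 120 min the median shift was -0.55, and 37 genes had a lower and 9 a higher mean at 120 min. Of these, 1, RPS29A, reached an unadjusted p of 0.05 in limma. Over all genes 792 of 3939 did, 424 of them upward. The other pairing called 11 genes for that contrast and the replicate block 1. The share of all genes that passed in these alternative settings was not counted.

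RPS29A had the largest upward difference between 60 and 120 min among the 46 genes. Its ratios were -0.86, -1.80, -1.23 and -1.27 on replicates 1 to 4 at 60 min and -0.86, -0.44, 0.27 and -0.01 at 120 min. All 4 arrays of 60 min lay at or below the lowest of 120 min, while the median of the 40S genes was lower at 120 min. The difference, 120 minus 60 min, was 1.03 ± 0.32 (unadjusted p = 0.0139, adjusted p = 0.207 in limma). Its mean at 120 min was -0.65 in experiment A and 0.13 in experiment B.

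Paralogs were compared as A minus B within each array, which removes any offset of the array. Where probes of near-identical genes share signal, the pair is drawn together, and this cannot be told apart from like changes. There were 17 pairs with both genes tested at 60 and 120 min. P-values were adjusted over all pairs whose names end in digits and A or B. Apart from COX5, all of these were pairs of small or large subunit genes. The shares of all pairs given here are thus not a background over yeast paralogs in general. At 60 min none of the 17 pairs passed, where 6.67% of all pairs did. At an unadjusted p of 0.05 in limma there were 2 of them, beside 12 of all 45 pairs tested. At 120 min 3 of 17 passed, RPS29, RPS24 and RPS7, where 34.1% of all pairs did. At 10, 20 and 40 min none passed in limma, with 0, 0 and 3 at an unadjusted p of 0.05. Over all pairs 0, 2 and 7 reached that unadjusted p.

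**Figure D4:**
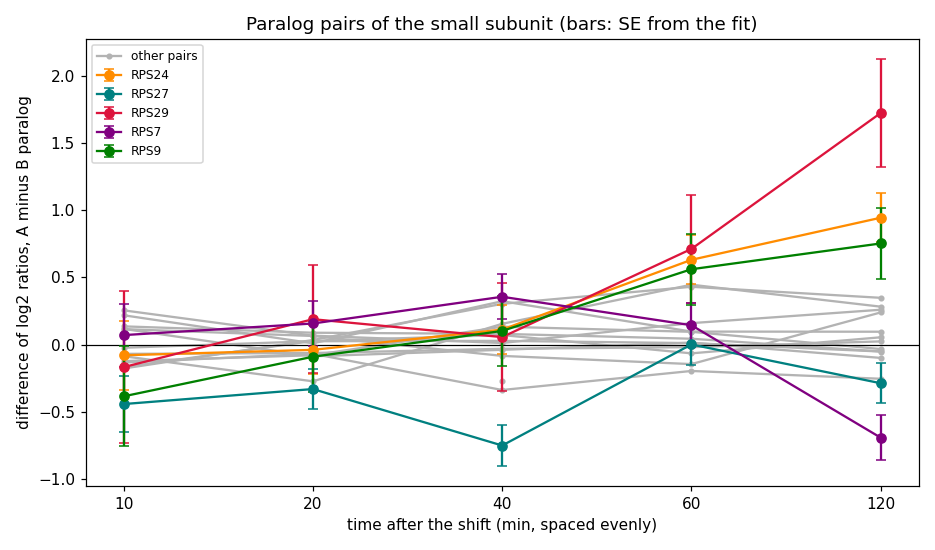
Lines join the mean difference in log2 ratio, A minus B, of each 40S paralog pair over the 5 times (min, evenly spaced); 5 pairs are coloured, with SE bars from the fit, and the others are grey. RPS29, RPS24 and RPS9 stand above 0 at 120 min, at 1.72, 0.94 and 0.75, and RPS7 below it, at -0.69.

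RPS29B, the paralog of RPS29A, was called lower at both late times. It had ratios of -0.94, -1.91, -2.54 and -2.61 at 60 min and -1.65, -1.38, -2.004 and -2.89 at 120 min, with a mean of -1.98 at 120 min, 3.95-fold lower, against 1.20-fold lower for RPS29A. The pair differed by 1.72 ± 0.40 at 120 min (adjusted p = 0.0193 in limma), RPS29A being higher on 4 of 4 arrays. At 60 min the difference was 0.71 ± 0.40 (adjusted p = 0.274), also with RPS29A higher on 4 of 4 arrays. The growth of the difference, 120 minus 60 min, was 1.01 and did not pass (unadjusted p = 0.115, adjusted p = 0.506).

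RPS24 encodes a protein of the subunit body. RPS24A had ratios of -1.43, -1.06, -1.14 and -1.75 at 120 min, and RPS24B had -2.14, -1.52, -2.60 and -2.88. The A paralog was higher on 4 of 4 arrays, by 0.94 ± 0.18 (adjusted p = 0.0132 in limma). At 60 min the difference of 0.63 ± 0.18 fell short (adjusted p = 0.0707), again with RPS24A higher on 4 of 4 arrays.

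RPS7 went the other way. RPS7A had ratios of -2.52, -1.61, -3.28 and -3.40 at 120 min, and RPS7B, encoding the same body protein, had -1.67, -1.37, -2.26 and -2.74. The A paralog was lower on all 4 arrays, by -0.69 ± 0.17 (adjusted p = 0.0201 in limma). At 60 min the difference was 0.14, with RPS7A higher on 2 of 4 arrays, and the shift from 60 to 120 min was -0.84 (unadjusted p = 0.00822, adjusted p = 0.181).

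**Figure D5:**
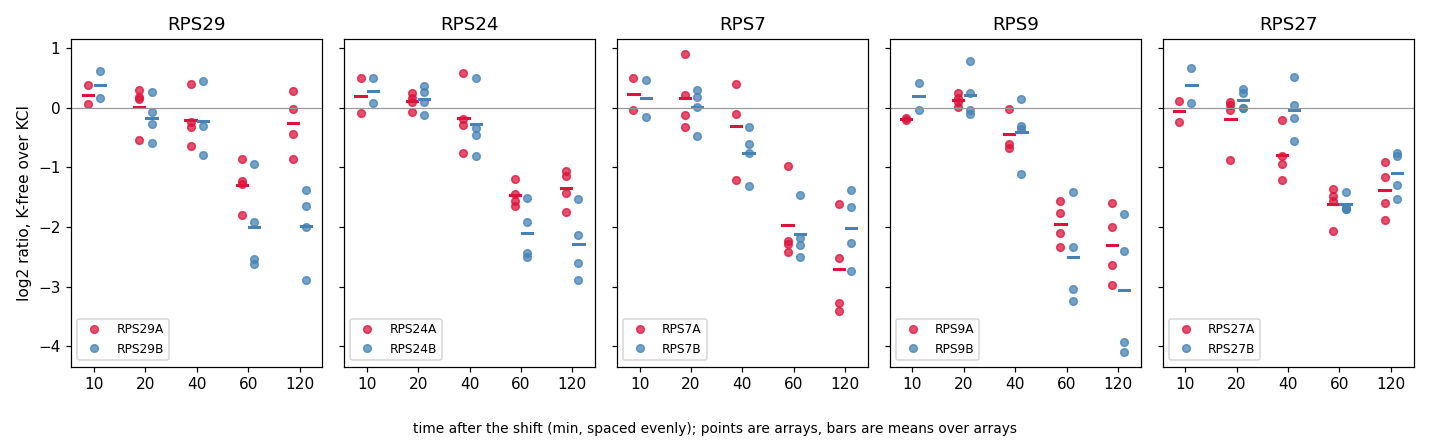
Points are arrays and short bars their means, as log2 ratio (K-free over KCl) by time after the shift (min, evenly spaced), for the A (red) and B (blue) gene of RPS29, RPS24, RPS7, RPS9 and RPS27. At 120 min the A and B points of RPS29 do not overlap, and those of RPS24, RPS7, RPS9 and RPS27 overlap in part.

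The RPS29, RPS24 and RPS7 calls were lost at a threshold of 0.01 and without experiment B of 120 min. The RPS7 call was also lost without replicate 1 of 120 min, with arrays scaled to the same spread, and with each time point fitted alone. Without experiment A of 120 min 7 pairs passed, and without replicate 2 of 120 min 5 passed. Over the alternatives the 120 min difference ran from 0.87 to 2.58 for RPS29, from 0.59 to 1.30 for RPS24 and from -0.84 to -0.46 for RPS7.

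RPS9, RPS14 and RPS26 had sizeable differences that did not pass. RPS9A had ratios of -1.99, -1.59, -2.63 and -2.98 at 120 min, and the pair differed by 0.75 ± 0.26 (adjusted p = 0.0623 in limma), A being higher on 4 of 4 arrays. At 60 min the difference was 0.56 (adjusted p = 0.218). RPS14 had 0.45 at 60 min (adjusted p = 0.271) and 0.28 at 120 min. RPS26A was higher than RPS26B on 4 of 4 arrays at 60 min, by 0.43 ± 0.14 (adjusted p = 0.0967), and on 3 of 4 at 120 min, by 0.35 ± 0.14 (adjusted p = 0.0845). RPS26 passed in 5 of 19 alternatives at 60 min and in 7 of 19 at 120 min, and RPS9 in 4 and 9.

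The RPS27 pair had its largest difference at 40 min, where it did not pass. There RPS27A was lower than RPS27B on 4 of 4 arrays, by -0.75 ± 0.15 (adjusted p = 0.0631 in limma), RPS27B having ratios of -0.56, 0.05, 0.52 and -0.17. At 60 min the genes had the same mean, to 0.00 ± 0.15, and at 120 min RPS27A was lower on 4 of 4 arrays, by -0.29.

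Some pairs stayed close. RPS0, RPS4, RPS6, RPS23 and RPS25 had differences between -0.10 and 0.10 at both late times, with SE of 0.10 to 0.12; a missed threshold does not show that the genes act alike. RPS0A and RPS0B, for example, had means of -1.96 and -1.97 at 60 min and -2.75 and -2.70 at 120 min. Over the 17 pairs the median size of the difference was 0.14 at 60 min and 0.25 at 120 min. It was 0.31 and 0.37 for the other A and B pairs, all of the large subunit except COX5.

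The large subunit genes, 79 rows by name, gave like medians. At 60 min 72 of 73 tested were lower, with a median of -1.85, and at 120 min 69 of 71, with a median of -2.20, beside the 25.1% and 22% of all genes. The 1 row called higher at 120 min, RPP1 at 1.40, encodes a subunit of ribonuclease P and not a ribosomal protein; it met the name pattern only. No test of 40S against 60S genes was made.

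Factors that build the 40S subunit, listed with some proteins of the finished one such as ASC1, were mostly lower at 60 min. Of these 23 genes, 3 of 21 tested were lower at 40 min, 14 of 20 at 60 min and 4 of 19 at 120 min. The medians were -0.46, -1.04 and -0.50, and ASC1 was among the 4 at 120 min. Over all genes 3.7%, 25.1% and 22% were called lower at those times, so the count at 120 min is no more than the background. At 60 min 1 factor was higher and at 120 min 2 were, where 21.7% and 20.4% of all genes were called higher. HRR25, the casein kinase that acts on Ltv1, was higher at both times, at 0.97 (adjusted p = 0.00488 in limma) and 0.71 (adjusted p = 0.0215). LTV1, TSR1 and ENP1, which ride on the maturing subunit, were the 3 called at 40 min, at -1.87, -1.32 and -1.24. They stood at -2.90, -2.02 and -1.85 at 60 min and at -1.09, -0.74 and -0.63 at 120 min, where none was called (adjusted p = 0.0794, 0.0873 and 0.124 in limma). ASC1 encodes a scaffold protein that stays on the finished subunit, and its ratios were -0.15, -1.58 and -2.76 at 40, 60 and 120 min. NOB1, the nuclease that makes the last 18S cut, was higher at 120 min, at 1.02 (adjusted p = 0.0439).

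Of 19 regulators of ribosomal protein genes, 2 of 16 tested were lower at 40 min, 5 of 13 at 60 min and 5 of 14 at 120 min, and 0, 1 and 2 were higher. Over all genes 3.7%, 25.1% and 22% were lower and 5.23%, 21.7% and 20.4% were higher at those times. RAP1, which encodes the main activator bound at these genes, was lower at all 3 times, at -1.22, -1.84 and -1.89 (adjusted p = 0.0292, 0.00128 and 0.00177 in limma). TOD6, a repressor of ribosome assembly genes, was at -2.47 at 40 min and was not tested later. At 120 min HMO1, an architectural factor at ribosomal promoters, was lower at -0.82. CRF1, a corepressor that competes with Ifh1, was higher at 1.22. DOT6, the paralog of TOD6, was higher at 1.09. STB3 was the 1 regulator called higher at 60 min, at 0.49 (adjusted p = 0.0335 in limma). SFP1 was tested at every time and never called. It stood at -0.15 at 60 min and 0.29 at 120 min (adjusted p = 0.504 and 0.2 in limma). FHL1 was tested only up to 40 min and IFH1 was not tested.

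Genes of the mitochondrial small subunit had medians near 0. Of 32 such genes, 1 of 23 tested was lower at 60 min, with a median of 0.03, and 1 of 25 at 120 min, with a median of 0.12, while 2 were higher at 120 min. Over all genes 25.1% were lower at 60 min, and at 120 min 22% were lower and 20.4% higher.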

How the data were processed

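RNA from both media was hybridised to 18 two-colour spotted arrays. Per the labels' protocols, 8 µg of RNA was labelled indirectly, and spots under 120 µm or dimmer than 100 intensity units were dropped. The authors deposited log ratios, 1 per gene and array, taken as log2 from their range, since the base is not stated; the background correction, the normalization and the array build are not given in these labels or headers. Gene names came from RefSeq assembly R64: 5644 IDs matched exactly, 18 in capitals and 550 not.

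Arrays 1 and 2, and 3 and 4, were averaged as dye-swap pairs to 9 experiments. This pairing is assumed, not stated. The dyes do not settle it, since they are also opposite when 1 is paired with 3 and 2 with 4. That other pairing was an alternative that changes several counts. Genes with values on at least 3 of 4 arrays (both at 10 min) were fitted in limma 3.58.1 (R 4.3.3), a mean per time, two-sided moderated tests against 0, Benjamini-Hochberg over all genes. The p-values rest on 2 experiments per time, and on a single one at 10 min. The spread behind each SE and p-value was fitted per gene over all times together. A gene's SE is therefore the same at 20, 40, 60 and 120 min and is not the spread of any time alone. The experiment at 10 min borrows its spread from later times. The fit was tested on simulated data.

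Members and lists were chosen with earlier results of these data known. Named genes are the extremes at each time, the unpaired genes, and the pairs that differ most; assembly factors and regulators are named where a call or a known role made them the main examples. A few genes count in the totals but are not reported here by name.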

Additional observations from a re-analysis of the deposited data

Results flagged for a closer look

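In groups of 4 arrays, a gene's most extreme array was set against the others by Dixon's criterion. Of 164 such groups, the median of the 40S genes at each time among them, 13 passed, where chance flags about 1 in 20. Of these, 11 were replicate 1 of 60 min, each time higher than the other 3 arrays. The values there were -1.056 for RPS13, -1.208 for RPS20, -1.322 for RPS21A, -1.153 for RPS21B and -0.920 for RPS23A. They were -0.466 for RPS25A, -0.712 for RPS25B, -0.603 for RPS26A, -1.417 for RPS27B, -0.684 for RPS4A and -0.971 for RPS7A. At 20 min RPS0A stood high on replicate 1 at 0.765, and RPS27A low on replicate 2 at -0.872. The large subunit genes moved with it: their median on replicate 1 of 60 min was -1.12, and -1.93, -2.09 and -2.11 on the other 3. What set that array apart was not tested.

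Among 40 of the 40S genes with all 8 values, 5 were above 0 on all 4 arrays at 20 min and below 0 on all 4 at 60 min, RPS0A, RPS0B, RPS1A, RPS4B and RPS9A. Every 40S value at 60 min was below 0, so this count turns on the signs at 20 min alone. Some of those values lay close to 0, at 0.019 for RPS4B on replicate 2 and 0.015 for RPS9A on replicate 4. RPS4B was also within 0.002 of TDH1 on replicates 3 and 4 of 20 min. The share over all genes was not counted, and the difference between those times was not tested.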

How the results depend on the processing

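No called result changed sign in any alternative run. At 40 min the call count of 1 became 5 with the other pairing, 3 with quantile normalization, and 2 with each array as a replicate, a random experiment block, a dye term, the replicate block, arrays scaled to the same spread or each time alone. It became 0 with median centring, a minimum of 2 arrays or a threshold of 0.01, and 0 to 1 with replicates left out. The median at 60 min became -1.16 when scaled and -1.19 under quantile normalization, and at 120 min -1.55 when scaled. With replicates or experiments left out, the 60 min count ran from 25 to 48 and the 120 min count from 43 to 47. For 60 minus 40 min, the count of 0 became 46 with the other pairing and with each array as a replicate, 45 with the dye term, 43 with the replicate block and 40 with the random block. For 120 minus 60 min it became 11 with the other pairing, 2 with each array as a replicate, and 1 with the dye term or the replicate block. The 3 paralog pairs became 9 with the other pairing, 8 with each array or the dye term, 6 with the random or replicate block, and 5 under quantile normalization or with all arrays. They became 0 at 0.01, and 2 to 7 with replicates left out. The share of all genes, or of all pairs, called in each alternative was not counted, so these counts have no background beside them. The cause was not tested.

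Replicate numbers did not pair the arrays: same-numbered arrays correlated from -0.364 to 0.525 over 24 pairs, and 6 of 16 arrays correlated best with their own number. Arrays within an experiment had a consensus correlation of 0.252, and -0.236 in the other pairing. Limits are the 2 experiments per time, the unstated normalization and possible probe sharing between paralogs. Without intensities, dim spots cannot be told from bright ones.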

Other observations

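The genes outside both ribosomal protein families whose ratios over the 18 arrays were most like the mean of the 40S genes, among 2545 genes with all values, were YGL102C (r = 0.993), PAC10 (0.992), YPL142C (0.991), YDR417C (0.990), FAU1 (0.990), YGR050C (0.990), CAF20 (0.986), SMP3 (0.985), NRD1 (0.984) and KRS1 (0.983). These correlations are a description over arrays that share time points. YGL102C, YPL142C and YDR417C have systematic numbers next to those of RPL28, RPL33A and RPL12B, and signal from such neighbours cannot be told apart here. Of the 50 most like genes, 44 were ribosomal protein genes. The 40S genes that make up the mean, 37 in number, were ranked too. By name, 64 large subunit genes were also among the 2545. Part of that count is therefore genes set against a mean that includes them. The same holds for the single 40S genes, which had r of 0.551 (RPS29A) to 0.997 with the mean. Their median was 0.987 over 37 genes, beside a median of 0.180 over all genes.

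Neighbouring genes did not always move by the same amount. RPS14B and RPS22A, which converge, stood at -1.58 and -3.21 at 120 min. RPS16B and RPL13A, which diverge, stood at -2.86 and -1.97, and RPS15 and RPP2A, which also diverge, at -2.24 and -1.78. The differences were not tested.

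The genes with few values were in part far from 0. RPS18B had -1.47 and -1.30 at 60 min and -1.29 and -2.23 at 120 min, all in experiment B. RPS22B had 0.40 at 40 min and -0.03 and -2.34 at 60 min.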
